A study of Mus musculus with 8 samples.

Results

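The ribosome biogenesis and RNA polymerase I (Pol I) genes were taken by symbol: names starting with Utp, Nop, Rrp or Nol and a digit, or with Polr1, and 13 further named genes (Wdr12, Wdr36, Wdr43, Wdr75, Fbl, Ncl, Npm1, Dkc1, Nhp2, Gar1, Mybbp1a, Heatr1 and Rrn3). Of 55401 gene records, 56 were members, 43 of them by the symbol pattern and 13 by name. All but the pseudogene Utp14b-ps1 had enough counts to be tested, so 55 were compared. Utp14b-ps1 had 8, 3, 0 and 0 counts in CKO 1 to 4 and 12, 4, 27 and 0 counts in controls 1 to 4.

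Haematopoietic stem cells (HSCs), the bone marrow cells from which all blood lineages descend, were profiled by RNA sequencing, with 4 libraries in each of 2 groups. The CKO group came from Nynrin fl/fl mice with Tie2-Cre, in which Cre removes the floxed part of Nynrin wherever the Tie2 promoter has been active, as in endothelium and blood cells. The control group came from Nynrin fl/fl mice without Cre, which the labels call wild type, and mice of both groups were C57BL/6 aged 8 weeks. About 3000 HSCs were sorted per sample by flow cytometry, and the series text also gives 500 cells. Both groups carried the floxed alleles and only CKO carried Cre, so effects of Cre and of Nynrin loss cannot be told apart. The labels do not say that the libraries came from separate mice, so the p-values speak for the spread among these 8 libraries only, part of which may be technical. In bulk RNA, fewer cells of a type and less RNA per cell cannot be told apart.

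Ribosomes are assembled in the nucleolus around ribosomal RNA that Pol I transcribes as 1 long precursor. The small-subunit processome folds and cleaves the part that becomes the small subunit, guided by the U3 small nucleolar RNA and by the UTP-A and UTP-B complexes, while other factors mature the large subunit. Box C/D and box H/ACA particles place methyl groups and pseudouridines on the RNA. Adult HSCs are known for a low rate of protein synthesis compared with the progenitors they give rise to.

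Promoter sequences are shown for 5 members on which the results below turn: Utp20, Mybbp1a and Polr1a, which were lower in all CKO libraries, and Gar1 and Utp18, which were higher in all of them. Each is the 250 bases before the start site, 5′ to 3′ on the gene's strand, from the RefSeq table of build GRCm38.p6. Capitals mark the E-box CACGTG, the site bound by Myc and its partners, and the ETS site CCGGAAG, each searched on both strands.
Utp20, chr10:88826815-88827064, minus strand: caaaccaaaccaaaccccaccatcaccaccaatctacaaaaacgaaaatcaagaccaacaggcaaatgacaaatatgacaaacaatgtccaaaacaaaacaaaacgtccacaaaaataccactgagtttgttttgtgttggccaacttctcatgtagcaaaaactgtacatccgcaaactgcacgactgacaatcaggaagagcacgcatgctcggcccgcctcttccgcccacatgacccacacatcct
Mybbp1a, chr11:72441077-72441326, plus strand: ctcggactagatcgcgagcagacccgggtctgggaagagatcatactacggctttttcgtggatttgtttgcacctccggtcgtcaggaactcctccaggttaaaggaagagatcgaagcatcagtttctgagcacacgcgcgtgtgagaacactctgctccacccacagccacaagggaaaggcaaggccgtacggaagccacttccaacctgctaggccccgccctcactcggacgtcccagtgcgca
Polr1a, chr6:71908803-71909052, plus strand: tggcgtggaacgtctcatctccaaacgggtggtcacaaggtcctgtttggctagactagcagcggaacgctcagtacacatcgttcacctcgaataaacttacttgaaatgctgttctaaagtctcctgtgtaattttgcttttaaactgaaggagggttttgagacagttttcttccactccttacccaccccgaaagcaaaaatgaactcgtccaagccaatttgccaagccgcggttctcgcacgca
Gar1, chr3:129831397-129831646, minus strand: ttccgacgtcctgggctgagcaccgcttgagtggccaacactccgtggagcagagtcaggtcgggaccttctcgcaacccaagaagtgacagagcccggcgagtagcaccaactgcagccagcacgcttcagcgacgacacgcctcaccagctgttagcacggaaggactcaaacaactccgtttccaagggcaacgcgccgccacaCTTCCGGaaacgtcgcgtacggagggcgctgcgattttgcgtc
Utp18, chr11:93885767-93886016, minus strand: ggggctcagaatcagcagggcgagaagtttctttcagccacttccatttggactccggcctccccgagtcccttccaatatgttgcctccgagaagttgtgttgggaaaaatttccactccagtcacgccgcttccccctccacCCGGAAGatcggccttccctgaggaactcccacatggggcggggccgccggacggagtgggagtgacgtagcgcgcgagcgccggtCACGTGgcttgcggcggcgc
The windows of Utp20, Mybbp1a and Polr1a held neither motif, that of Gar1 held an ETS site and that of Utp18 held both. Of 44 members with a window, 7 held the E-box (15.9%): Nol11, Nop2, Rrn3, Rrp7a, Utp14b, Utp18 and Utp25. Among 8687 genes with a mean of at least 5 CPM (counts scaled to library size) 10.3% held it, and 6.86% did among all 27025 genes with a RefSeq window. The ETS site was in 11 members (25.0%), against 17.0% of the genes at 5 CPM and 7.83% of all genes. A match describes the letters only. RefSeq windows were not used for Nol4, Rrp12, Utp23, Utp6, Nol3, Utp14b-ps1, Nol6, Npm1, Wdr36, Utp11, Nop53 and Fbl.

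Total counts ran from 43998525 to 56437299 in CKO and from 36942835 to 50260720 in controls. Nynrin, the targeted gene, measured 12.7, 12.3, 8.24 and 8.22 CPM in CKO 1 to 4 and 41.3, 47.5, 30.1 and 30.4 CPM in controls 1 to 4. It was lower in every CKO library (log2 fold change -1.85, SE 0.22, edgeR adjusted p = 0.0345). All 11 HSC markers examined had counts in every library. By edgeR, 1 of them was higher in CKO and 0 lower, beside 2.22% and 0.588% of all genes tested. Mecom (log2 fold change -0.98, adjusted p = 0.0746) and Fgd5 (-0.75, adjusted p = 0.108) lay below every control in all CKO libraries, and 1 marker lay above. Of all genes tested, 4.83% lay below and 9.52% above. Libraries did not vary by group alone. CKO 1 and 2 were close to each other, with a biological coefficient of variation of 0.138 between them, as were CKO 3 and 4 with 0.134, while pairs across these differed by 0.34 to 0.343 and controls by 0.187 to 0.231. CKO 3, CKO 4 and control 4 had 177 to 216 CPM summed over 2001 receptor genes of the olfactory and vomeronasal families, which have no known use in blood, and the other 5 libraries had 872.5 to 1449 CPM. These are called the sets with few and with more receptor reads. Xist was high in controls 3 and 4 only.

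As a family, the members lay slightly above controls in CKO with TMM scaling but not with total counts alone, and other well-expressed genes did likewise. Of 55 tested, Nop53 rose and Utp20, Rrp12 and Mybbp1a fell at an adjusted p under 0.05 (edgeR quasi-likelihood test, adjusted over all 27573 genes tested). That is 1.82% higher and 5.455% lower, beside 2.22% higher and 0.588% lower among all genes tested and 5.2% and 1.25% among the 11484 genes with a mean of at least 5 CPM. The median log2 fold change of the members was 0.25, with a range of -1.50 to 0.76, and 37 were positive (67.27%, against 65.5% of the genes at 5 CPM and 44.5% of all). The median was 0.17 for the genes at 5 CPM and -0.09 for all genes tested. At an unadjusted p under 0.05, 25 members were higher and 6 lower, beside 13.2% and 5.78% of all genes tested and 29.1% and 8.73% of the genes at 5 CPM. In 20 members all CKO libraries were above all controls (36.36%), and in 7 all were below (12.73%). The same held for 20.5% and 6.47% of the genes at 5 CPM, and for 9.52% and 4.83% of all genes.

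The direction of the family's median rested on the scaling. It was 0.25 with TMM factors, 0.15 with upper-quartile factors, 0.20 with RLE factors and -0.01 with total counts alone, and the median of the genes at 5 CPM moved with it, at 0.17, 0.07, 0.12 and -0.10. The members stood 0.08 to 0.09 above those genes under each of these scalings. Summed over the members, the share of raw counts was 0.5898%, 0.5871%, 0.5202% and 0.5241% in CKO 1 to 4 and 0.5341%, 0.5265%, 0.6186% and 0.6077% in controls 1 to 4, so the groups overlapped. By library, the members' median log2 distance from the control mean was 0.17, 0.20, 0.23 and 0.27 in CKO 1 to 4 and -0.06, -0.10, 0.00 and 0.185 in controls 1 to 4. Control 4 lay within the CKO range. Within the set with few receptor reads (CKO 3 and 4 against control 4) the median was 0.02, and within the set with more it was 0.22.

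**Figure D1:**
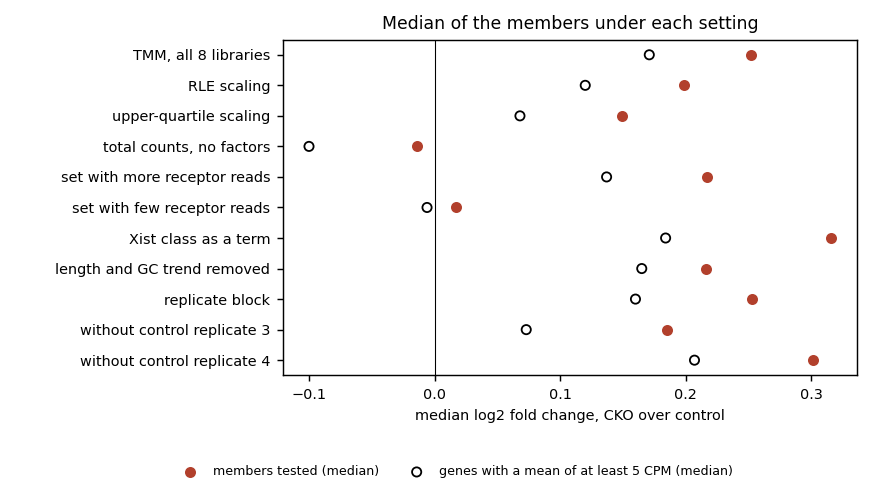
Median log2 fold change of CKO over control (x axis) under each setting named on the y axis, for the 55 members (filled points) and for the genes with a mean of at least 5 CPM (open points). The members' median runs from -0.01 with total counts to 0.32 with the Xist class as a term, and the open points lie to its left in every row shown.

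**Figure D2:**
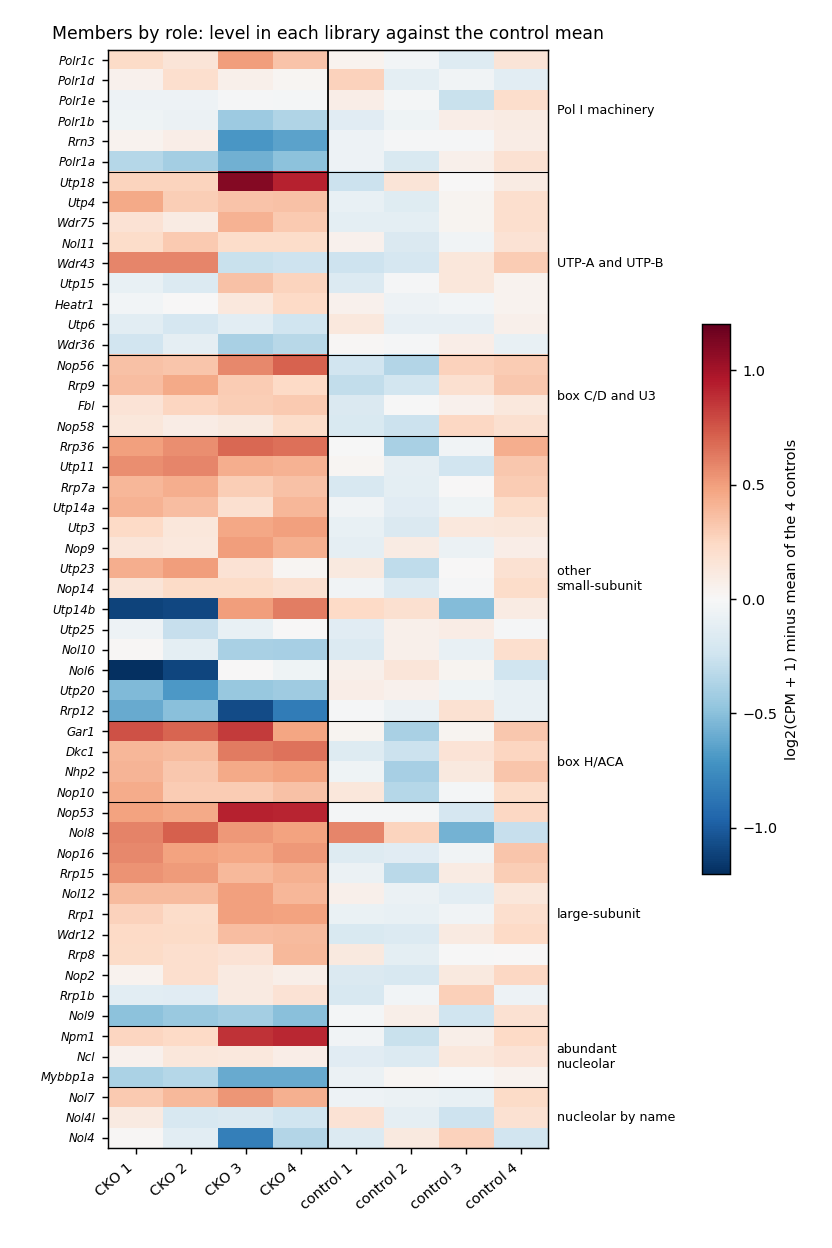
Log2(CPM + 1) of each member minus the mean of the 4 controls, in CKO 1 to 4 (left) and controls 1 to 4 (right), with members grouped by role. Colour runs from blue (below the control mean) to red (above it). Nol3 and Utp14b-ps1, both near 0 counts, are left out. The H/ACA genes are red in all CKO libraries, and Utp20, Rrp12, Mybbp1a, Nol9 and Polr1a are blue in all of them.

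The 3 members that fell have long coding sequences. Utp20, a very large scaffold protein of the small-subunit processome (ENSMUSG00000004356, chr10:88746607-88826804, minus strand, mm10), measured 51.3, 45.7, 54.1 and 55.0 CPM in CKO 1 to 4 and 78.9, 77.4, 71.9 and 69.9 CPM in controls 1 to 4. Every CKO library was below every control, and CKO 2 was the lowest of all. The means were 51.5 ± 4.21 CPM in CKO and 74.5 ± 4.32 CPM in controls (SD, n = 4 each), a log2 fold change of -0.53 with an SE of 0.10 (edgeR adjusted p = 0.0407). Within the library set with more receptor reads it was -0.67, and within the other set -0.48.

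Rrp12, which in yeast is needed for maturation and nuclear export of pre-ribosomes (ENSMUSG00000035049, chr19:41862851-41896173, minus strand), had 39.2, 42.2, 28.1 and 33.1 CPM in CKO 1 to 4 and 59.4, 57.2, 68.2 and 56.4 CPM in controls 1 to 4. The groups did not overlap, and CKO 3 was the lowest library. The log2 fold change was -0.76 (SE 0.14, edgeR adjusted p = 0.0408). Mybbp1a, a nucleolar Myb-binding protein (ENSMUSG00000040463, chr11:72441355-72451768, plus strand), had 202.9, 208.5, 174.0 and 173.6 CPM in CKO 1 to 4 and 252.4, 269.6, 263.8 and 272.3 CPM in controls 1 to 4. CKO 3 and 4 were lower than CKO 1 and 2, and all 4 were below the controls. The log2 fold change was -0.48 (SE 0.11, edgeR adjusted p = 0.0491). Spns2 on the opposite strand overlaps Mybbp1a with 31.5% as many counts and had a log2 fold change of 0.14. No source used here says whether counting used strand, so reads of such pairs could fall on either gene. The same uncertainty holds for Dkc1, Heatr1, Nhp2, Nol3, Nol7, Nop56, Rrp7a, Rrp8 and Rrp9, each of which overlaps a gene on the opposite strand with at least 10% as many counts. It was 165% for Heatr1, 540.2% for Rrp8 and 19076.5% for Nol3. The overlapping genes had log2 fold changes of 0.64 (at Dkc1), 0.36 (Heatr1), 0.22 (Nhp2), -0.29 (Nol3) and 0.52 (Nol7). At Nop56, Rrp7a, Rrp8 and Rrp9 they were 0.39, 0.37, 0.19 and 0.17. Each had the sign of its member's own log2 fold change.

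Nop53, the member that rose, is a large-subunit factor that in yeast brings the RNA exosome to the precursor (ENSMUSG00000041560, chr7:15936183-15946074, minus strand). It measured 296.4, 290.9, 402.9 and 399.9 CPM in CKO 1 to 4 and 208.9, 209.1, 183.9 and 251.6 CPM in controls 1 to 4. CKO 3 and 4 were the highest libraries, and CKO 1 and 2 were still above every control. The means were 347.5 ± 62.2 CPM in CKO and 213.4 ± 28.1 CPM in controls (SD, n = 4 each), a log2 fold change of 0.70 with an SE of 0.16 (edgeR adjusted p = 0.0496). All 4 of these genes kept their sign in 23 of 23 alternative settings. Their calls were less firm: each was lost with RLE scaling, no low-count filter, the Xist class as a term (adjusted p = 0.0687 to 0.125) and the CKO pairs summed (adjusted p = 0.237 to 0.267). Calls fell over all genes tested too, from 611 higher and 162 lower to 13 and 22 with RLE scaling. They fell to 33 and 16 without the filter, 4 and 6 with the Xist term and 0 and 0 with the pairs summed. Leaving out 1 library at a time gave adjusted p values of 0.0288 to 0.129 for Utp20, 0.0348 to 0.127 for Rrp12, 0.0575 to 0.176 for Mybbp1a and 0.0383 to 0.291 for Nop53, and the only removal under which any of them passed was that of control 4. Over all genes tested, 1061 rose and 237 fell without control 4. Without any other library, at most 6 rose and at most 4 fell.

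**Figure D3:**
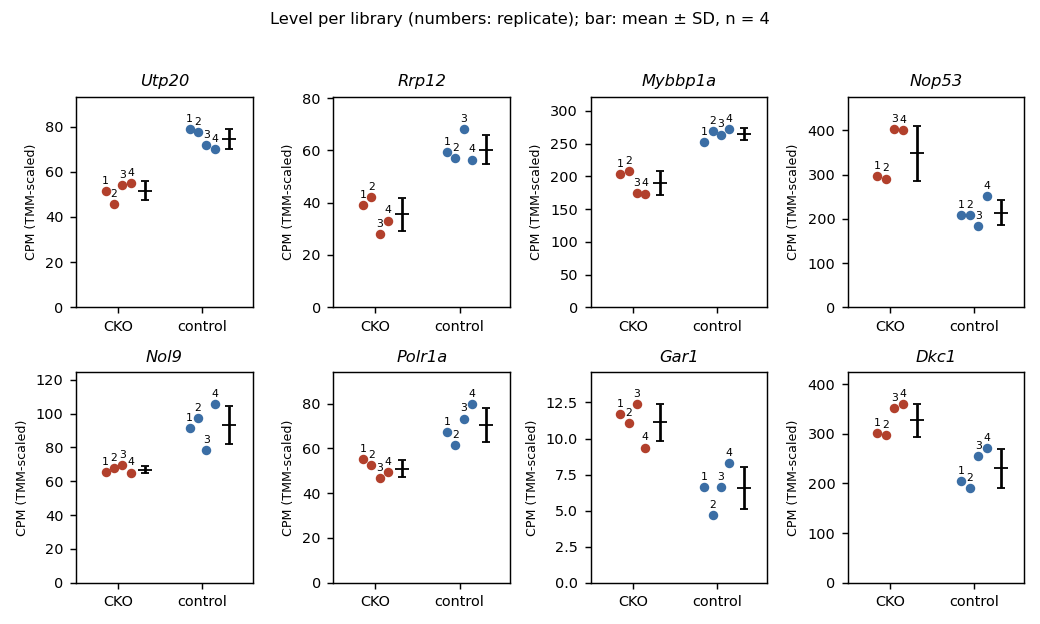
CPM (y axis, from 0, its scale set per gene) of 8 members in each CKO and control library, with replicate numbers beside the points and bars for the mean ± SD of 4. In the upper row are the 4 members that passed the test, with Utp20, Rrp12 and Mybbp1a lower and Nop53 higher in all CKO libraries. In the lower row are Nol9, Polr1a, Gar1 and Dkc1, which lie apart between the groups without passing.

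Among the Pol I genes, 0 of 6 passed the edgeR test in either direction, with 1 higher and 1 lower at an unadjusted p under 0.05, a cutoff that 29.1% and 8.73% of the genes at 5 CPM met. Their median log2 fold change was -0.14. Polr1a, the largest catalytic subunit, came nearest. It had 55.1, 52.6, 46.6 and 49.5 CPM in CKO 1 to 4 and 67.4, 61.6, 73.3 and 79.6 CPM in controls 1 to 4, with no overlap. Its log2 fold change was -0.47 (SE 0.11, edgeR adjusted p = 0.0535), just outside the threshold. Polr1b, the other large subunit, was at -0.23 (adjusted p = 0.367) and the initiation factor Rrn3 at -0.26 (adjusted p = 0.552), both with overlapping groups. Polr1c, which Pol I shares with Pol III, was above every control in all CKO libraries at 0.31 (adjusted p = 0.162). The margin was small, with 52.78 CPM in CKO 2 and 52.73 CPM in control 4. Its log2 fold change was 0.04 with total counts and 0.06 with the length and GC trend removed. Polr1d, also shared, was at 0.08 with TMM and -0.18 with total counts (adjusted p = 0.804 with TMM), and Polr1e was at -0.05 (adjusted p = 0.883).

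Further Pol I subunits and initiation factors, which the symbol rule does not take in, were also without a call. The subunit genes Twistnb, Znrd1 and Cd3eap had log2 fold changes of 0.26, 0.34 and 0.22 (edgeR adjusted p = 0.259, 0.412 and 0.544), of which Twistnb was at -0.01 and Cd3eap at -0.07 with total counts. Ubtf, the factor that opens ribosomal DNA for Pol I, measured 61.1, 65.9, 55.6 and 57.3 CPM in CKO 1 to 4 and 60.8, 63.8, 62.3 and 66.8 CPM in controls 1 to 4. These overlapped, with a log2 fold change of -0.08 (adjusted p = 0.732). Parts of the Pol I promoter selectivity complex lay apart in opposite directions without passing, Taf1c at -0.56 (adjusted p = 0.0544) and Taf1b at 0.49 (adjusted p = 0.0705). Tcof1, a nucleolar cofactor of ribosomal RNA transcription, was at -0.46 (adjusted p = 0.0589).

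Of the 9 UTP-A and UTP-B genes, 0 passed the edgeR test, and 3 higher and 1 lower had an unadjusted p under 0.05, near the 29.1% and 8.73% of the genes at 5 CPM. Their median was 0.21 with TMM and -0.03 with total counts. Utp4 was above every control in all CKO libraries (log2 fold change 0.36, adjusted p = 0.0934), as was Utp18 (0.70, adjusted p = 0.101). Utp18 had 30.3, 30.3, 54.5 and 48.3 CPM in CKO 1 to 4 and 20.7, 27.9, 25.1 and 26.8 CPM in controls 1 to 4. CKO 3 and 4 were far above CKO 1 and 2, which were only just above the controls. Wdr36 and Utp6 were below every control, at -0.27 (adjusted p = 0.175) and -0.18 (adjusted p = 0.349). Heatr1, another long scaffold protein, was at 0.09 with TMM but -0.19 with total counts and -0.02 with upper-quartile factors (adjusted p = 0.728 with TMM).

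The other 14 small-subunit genes held 2 of the calls, Utp20 and Rrp12, both lower, beside 1.25% lower among the genes at 5 CPM. Of the 14, 8 were positive (57.14%, against 65.5% of the genes at 5 CPM), with a median of 0.25 with TMM and -0.02 with total counts. In 3 all CKO libraries lay above every control (21.43%) and in 2 below (14.29%), beside 20.5% and 6.47% of the genes at 5 CPM. Rrp36 and Utp11, processome factors, lay above every control in all CKO libraries, at 0.59 (edgeR adjusted p = 0.0916) and 0.49 (adjusted p = 0.0749), but at 0.13 and -0.02 in the libraries with few receptor reads. Utp14b, a retrogene copy of Utp14a, lies within Acsl3 on the same strand, a gene with 940.7% of its counts, and its level is therefore uncertain (log2 fold change -0.09, adjusted p = 0.957).

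All 8 box C/D and H/ACA genes had positive log2 fold changes with TMM scaling, without a call, but Fbl and Nop58 turned negative with total counts and with the length and GC trend removed, as did Nop10, Nop58 and Rrp9 (-0.01, -0.14 and -0.17) in the libraries with few receptor reads. Of the genes at 5 CPM, 65.5% were positive with TMM. The H/ACA median was 0.45 with TMM and 0.18 with total counts, and the box C/D median was 0.29 and 0.03. Box H/ACA particles carry Dkc1, the pseudouridine synthase, with Nhp2, Nop10 and Gar1, and the same proteins bind the telomerase RNA. Dkc1 had 300.7, 296.7, 351.6 and 359.0 CPM in CKO 1 to 4 and 204.6, 190.1, 254.6 and 271.7 CPM in controls 1 to 4. The groups did not overlap, and the CKO libraries with the highest levels were 3 and 4. The log2 fold change was 0.51 (SE 0.14, edgeR adjusted p = 0.0884). Gar1 had the highest log2 fold change of all members, with 11.7, 11.1, 12.4 and 9.37 CPM in CKO 1 to 4 and 6.64, 4.69, 6.63 and 8.31 CPM in controls 1 to 4. Its groups lay apart (0.76, SE 0.20, adjusted p = 0.0725). Nhp2 was at 0.40 (adjusted p = 0.172) and Nop10 at 0.34 (adjusted p = 0.186).

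Of the box C/D proteins, the methyltransferase Fbl was above every control in all CKO libraries at 0.26 (edgeR adjusted p = 0.184), and at -0.01 with total counts. Its partner Nop56 also lay above every control at 0.47 (adjusted p = 0.182), although Idh3b on the opposite strand holds 64.8% as many counts. Nop58, the other core partner, was at 0.12 with TMM and -0.15 with total counts (adjusted p = 0.714 with TMM). The U3-specific Rrp9 was at 0.33 (adjusted p = 0.288).

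Of 11 large-subunit factors, 6 were above every control in all CKO libraries and 1 below, beside 20.5% and 6.47% of the genes at 5 CPM, and their median was 0.37 with TMM and 0.09 with total counts. Beside Nop53, these included Nol12 (0.42, edgeR adjusted p = 0.059), Nop16 (0.50, adjusted p = 0.0631) and Rrp1 (0.37, adjusted p = 0.124). Nol9, a polynucleotide kinase of ribosomal RNA processing, ran the other way, with 65.5, 67.6, 69.7 and 65.1 CPM in CKO 1 to 4 and 91.3, 97.4, 78.6 and 105.4 CPM in controls 1 to 4. The CKO libraries were within 5 CPM of each other and the controls were more spread. The log2 fold change was -0.48 (SE 0.11), and the adjusted p of 0.0506 was the nearest to the threshold of 0.05 from outside.

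Per kilobase of the principal transcript, the level of Npm1, a nucleolar chaperone and histone-binding protein, was the highest of all members, at 569.1 CPM in CKO and 377.3 CPM in controls. Nop56 came next, at 197.0 and 142.0 CPM per kilobase in CKO and controls. Npm1 lay above every control at a log2 fold change of 0.59 (SE 0.20, edgeR adjusted p = 0.128). Ncl, or nucleolin, overlapped between groups (0.09 with TMM but -0.18 with total counts and -0.01 with upper-quartile factors, adjusted p = 0.758 with TMM). At the low end were Nol4 and Nol3, members by name only, since Nol3 is an inhibitor of apoptosis. Nol3 had 0, 5, 0 and 17 counts in CKO 1 to 4 and 17, 14, 24 and 8 counts in controls 1 to 4, and its fold change is not interpretable at this depth. Nol4 was at -0.58 (adjusted p = 0.646). Nol7 was above every control in all CKO libraries at 0.42 (adjusted p = 0.0725).

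A wider list of 117 ribosome biogenesis genes outside the rule held calls in 1 direction in the edgeR fit used here, but not under every alternative. Of these, 12 rose (10.3%) and 0 fell by edgeR at an adjusted p under 0.05. Among the genes at 5 CPM 5.2% rose and 1.25% fell, and among all genes tested 2.22% and 0.588%. At an unadjusted p under 0.05, 53 of the list were higher and 11 lower, beside 29.1% and 8.73% of the genes at 5 CPM. DESeq2 called 25 higher and 10 lower, beside 6.22% and 3.56% of all genes. Of the 11484 genes at 5 CPM, DESeq2 called 1621 higher and 831 lower. None of the 12 kept its call with RLE scaling, no low-count filter, the Xist class as a term or the CKO pairs summed (adjusted p = 0.237 for each of the 12), nor with the trend in length and GC taken out. Of all genes tested, 13 rose and 22 fell with RLE scaling, and 33 and 16 without the filter. With the Xist term 4 rose and 6 fell, with the pairs summed 0 and 0, and with the trend taken out 12 and 5. The median of the list was 0.27 with TMM and 0.00 with total counts. By edgeR, 3 of 15 exosome genes rose, as did 5 of 33 small-subunit and 4 of 49 large-subunit genes and 0 of 20 genes of Pol I initiation and chromatin. All 12 that rose have short coding lengths, from 585 bases (Exosc1) to 1335 (Dcaf13). Among 6689 genes at 5 CPM with a coding length of up to 1740 bases, 535 rose and 32 fell. The part of length in these calls was not tested. Fcf1, a small-subunit factor, had 104.6, 94.5, 94.0 and 92.7 CPM in CKO 1 to 4 and 56.6, 45.9, 53.3 and 66.2 CPM in controls 1 to 4. The groups were far apart, with a log2 fold change of 0.80 (SE 0.12, adjusted p = 0.0345). Brix1 and Rpf1, related large-subunit factors, rose by 0.70 (adjusted p = 0.0379) and 0.595 (adjusted p = 0.0408) on the log2 scale. The exosome subunits Exosc1 and Exosc7 rose by 0.61 (adjusted p = 0.0396) and 0.53 (adjusted p = 0.0416). Of the small-subunit factors, Emg1 rose by 0.60 (adjusted p = 0.0397), Ngdn by 0.67 and Dcaf13 by 0.49 (adjusted p = 0.0408 each).

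Within the family the direction went with gene length. The 55 members were divided at a coding length of 1740 bases, that of Nop56. Of 28 members up to that length, 26 were positive, with a median log2 fold change of 0.37, and 17 lay above every control and 0 below. Of 27 longer members, 11 were positive, with a median of -0.11, and 3 lay above and 7 below. The 3 that fell, Utp20, Rrp12 and Mybbp1a, have coding lengths of 8367, 3885 and 4032 bases, and Nop53, which rose, has 1452. The genes at 5 CPM showed the same split, with medians of 0.28 for 6689 shorter genes and -0.05 for 3818 longer ones, and with 535 higher and 32 lower calls among the shorter and 33 higher and 103 lower among the longer. Of the 6689, 5209 were positive, 1956 lay above every control and 177 below, and of the 3818, 1641 were positive, 253 lay above and 517 below. Spearman's rho between coding length and log2 fold change was -0.55 over 55 members and -0.47 over 10507 genes at 5 CPM, as descriptions across genes that share the same 8 libraries.

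After each library's trend on the length and GC content of transcripts was removed, the medians were 0.28 for the shorter and 0.11 for the longer members. Those of the genes at 5 CPM were 0.20 for the shorter and 0.12 for the longer genes. Utp20 was then at -0.18 (edgeR adjusted p = 0.654), Rrp12 at -0.55 (adjusted p = 0.112), Mybbp1a at -0.30 (adjusted p = 0.194) and Nop53 at 0.79 (adjusted p = 0.0812), so 0 members passed, with 21 higher and 4 lower at an unadjusted p under 0.05. Over all 27514 genes in that fit, 12 rose and 5 fell at an adjusted p under 0.05. Of 11479 genes at 5 CPM, 2896 were higher and 594 lower at an unadjusted p under 0.05. In the same fit, Polr1a was at -0.18 (adjusted p = 0.689) and Nol9 at -0.57 (adjusted p = 0.0684).

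**Figure D4:**
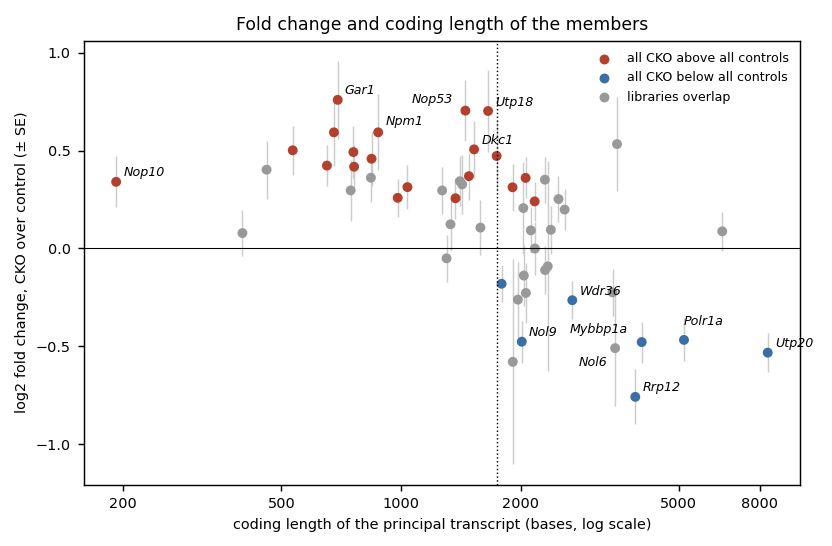
Log2 fold change of CKO over control ± SE (y axis) against coding length in bases (x axis, log scale) for the tested members except Nol3. Nol3, near 0 counts, was left out of the plot, with a coding length of 660 bases and a log2 fold change of -1.50. Red points have all CKO libraries above all controls, blue points all below, and the dotted line is at 1740 bases. No blue point lies left of the line, and Utp20, the longest member, lies farthest right at -0.53.

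The CKO libraries split in pairs for several members. Nol6, a small-subunit factor, had 83.0, 96.9, 209.7 and 201.6 CPM in CKO 1 to 4 and 219.2, 231.7, 213.8 and 177.5 CPM in controls 1 to 4. CKO 1 and 2 were far below the controls, and CKO 3 and 4 were within their range, so the log2 fold change of -0.51 (edgeR adjusted p = 0.411) described neither pair. Wdr43 of UTP-A had 215.8, 216.2, 119.1 and 121.2 CPM in CKO 1 to 4 and 121.3, 125.4, 158.5 and 177.7 CPM in controls 1 to 4. Here CKO 1 and 2 were above every control, while CKO 3 and 4 were just below the lowest. Npm1 had 732.4, 723.8, 1119 and 1143 CPM in CKO 1 to 4 and 594.2, 507.8, 642.3 and 720.1 CPM in controls 1 to 4. All CKO libraries exceeded the controls, CKO 1 and 2 by little.

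Rrn3 had 55.9, 57.4, 32.9 and 34.4 CPM in CKO 1 to 4 and 51.7, 53.5, 53.7 and 57.8 CPM in controls 1 to 4, so only CKO 3 and 4 were low. Counted over all tested members, both pairs lay above the controls in 20 and below in 7. In 6 members CKO 3 and 4 alone were above and in 4 they alone were below, while CKO 1 and 2 alone were above in 5 and below in 2. Both pairs lay within or across the control range in 9, and in Wdr43 and Utp14b the pairs were on opposite sides. Such splits were common among the 11484 genes at 5 CPM: CKO 3 and 4 alone were above in 18.5% and below in 9.84%, CKO 1 and 2 alone were above in 8.82% and below in 5.21%, and the pairs were on opposite sides in 3.34% and 2.88%. A difference in the genotype's effect between the pairs cannot be told apart from the library sets, since only 1 control is in the set with few receptor reads.

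Levels of some other genes moved with the same pairs. Myc, a known activator of ribosome biogenesis genes, had 457.0, 453.8, 879.6 and 884.5 CPM in CKO 1 to 4 and 446.7, 574.2, 537.0 and 558.7 CPM in controls 1 to 4 (log2 fold change 0.34, edgeR adjusted p = 0.549). It was within the control range in CKO 1 and 2 and above it in CKO 3 and 4, and Mycn was at -0.47 (adjusted p = 0.146). The 9 neutrophil and granulocyte precursor markers summed to 468 to 4073 CPM in CKO, with 4033 and 4073 in CKO 3 and 4, and to 203.5 to 353.5 CPM in controls. Of these, 1 of 9 rose by edgeR, 7 of 9 lay above every control in all CKO libraries, and 0 were at 0 in any library. For comparison with this list and the next ones, 5.2% of the genes at 5 CPM and 2.22% of all genes tested rose. Above every control in all CKO libraries were 20.5% of the genes at 5 CPM and 9.52% of all genes. The 6 monocyte and macrophage markers summed to 50.5, 50.1, 169 and 148.4 CPM in CKO 1 to 4 and 28.6 to 34.2 CPM in controls, with 2 of 6 higher by edgeR and 0 at 0 in any library. Among them, Csf1r was below every control in CKO 1 and 2, at 4.14 and 3.67 CPM against 7.10 to 9.99 CPM. The 6 T and NK cell markers summed to 143 to 290.3 CPM in CKO, again highest in CKO 3 and 4, and to 54.8 to 85.2 CPM in controls. Nkg7, the 1 of 6 called higher, made up most of these sums, at 145.1, 133.4, 267.1 and 258.7 CPM in CKO 1 to 4. Without a call, Cd3e, Cd4 and Gzmb had positive log2 fold changes (0.42, 0.93 and 2.39), and Cd3d and Cd8a negative ones (-0.83 and -0.345). Cd8a was at 0 in CKO 3 and control 4. Erythroid markers ran the other way between the pairs, with sums of 251.9 and 260.6 CPM in CKO 1 and 2, 143.6 and 141 CPM in CKO 3 and 4 and 91.1 to 116 CPM in controls, and 2 of 7 were higher. Mitochondrially encoded genes took 9.90% and 9.86% of counts in CKO 3 and 4, 6.78% and 6.56% in CKO 1 and 2 and 5.98% to 7.44% in controls. The 10 proliferation genes summed to 1556 to 2184 CPM in CKO and 1405 to 1697 CPM in controls, with the highest sums again in CKO 3 and 4. The part of these in the members' values was not tested.

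**Figure D5:**
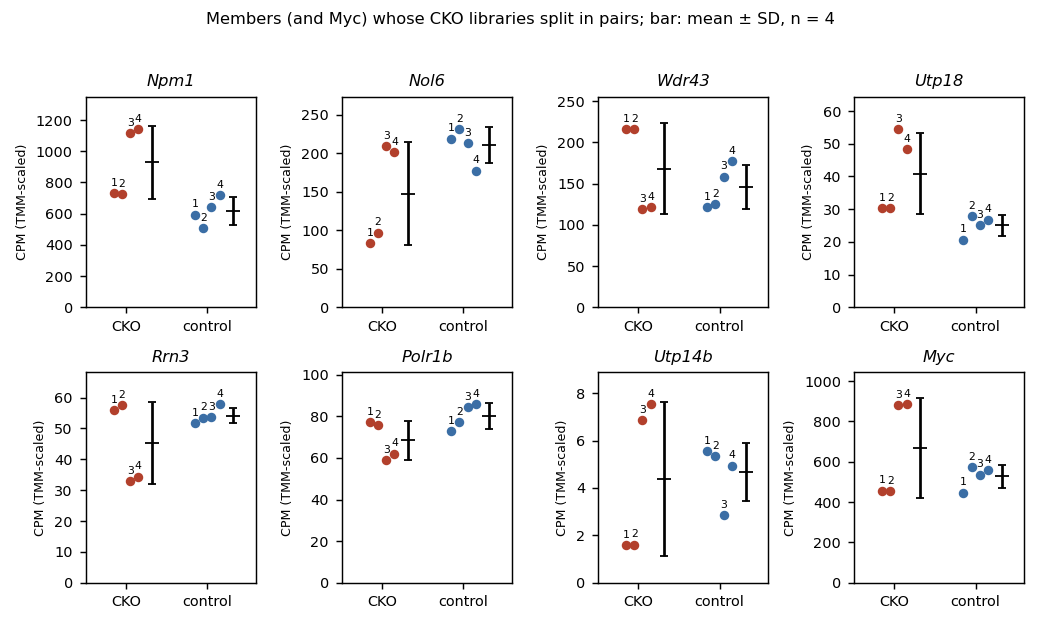
CPM (y axis, from 0, its scale set per gene) in each CKO and control library for 7 members and Myc, with replicate numbers beside the points and bars for the mean ± SD of 4. CKO 1 and 2 lie close together, as do CKO 3 and 4, and the pairs stand apart from each other in every panel, as in Nol6 at 83.0 and 96.9 against 209.7 and 201.6 CPM.

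Across the 8 libraries, the genes whose log2 CPM followed the mean standardised profile of the members most closely, of 16789 ranked, included Coq6 and Tsg101 (Pearson r 0.989 each), Timm8a1 (0.988), Cdk5rap3 (0.979) and Bud23 (0.977). These are descriptions over 8 libraries that share groups and library sets.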

How the data were processed

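Gene counts were deposited by the authors as whole numbers, without normalization, in 1 column for each of 8 libraries, as the file headers and the values show. The submitters' processing notes name mm10 as the build. The aligner, the counting program and the strand setting are not given in any source used here. Groups and replicate numbers came from the labels.

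The count model was edgeR 4.0.16 (R 4.3.3). Its filterByExpr step kept 27573 genes, TMM factors scaled the libraries, and a robust quasi-likelihood F-test compared CKO with control. P-values were adjusted over all tested genes by the Benjamini-Hochberg method at a threshold of 0.05. CPM values are counts scaled to library size by the same factors, and means are given ± SD over 4 libraries. The lowest library total was 36942835 counts. The code was tested on simulated counts.

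Transcript and coding lengths were those of the principal transcript in GENCODE M21, in which 51957 of 55141 shared records had identical start and end. The length and GC trend was a spline with 5 degrees of freedom per library, fitted on genes with a mean of at least 1 CPM.

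The members and lists were chosen with earlier results of these data known. Genes named were those that passed (up to 8 by smallest p outside the members), per role the 2 members with the smallest p and the one with the highest CPM, and a fixed set of central genes. Another 22 were named after their values were seen, to complete a role or beside a result. A result that these rules would name is not reported here. Alternatives were RLE, upper-quartile and total-count scaling, other filters (no filter, or a mean of at least 1 CPM), DESeq2 1.42.0, limma-voom (limma 3.58.1), no robust estimation, a replicate block, terms or subsets for library set (drawn at 300 CPM of receptor reads) and Xist class (drawn at 100 CPM), summed CKO pairs, the length and GC trend taken out, and each library left out in turn.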

Additional observations from a re-analysis of the deposited data

Results flagged for a closer look

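In 4 of the 110 checks made, 1 per named gene and group, the highest of 4 libraries lay far from the others, with a gap to the next library above the critical value of Dixon's test. About 1 in 20 such groups is picked out by chance alone. Fcf1 was at 104.6 CPM and Taf1b at 67.03 CPM in CKO 1. Nol7 was at 45.0 CPM and Rrp1 at 311.8 CPM in control 4, in both genes the control nearest to the CKO libraries.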

How the results depend on the processing

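The calls depend strongly on the processing. The numbers of members called higher and lower, and of other biogenesis genes called higher and lower, were 1, 3, 12 and 0 as reported. All 4 were 0 with RLE scaling, no low-count filter, the Xist term, summed CKO pairs and the length and GC trend removed. They were 0, 2, 0 and 4 with total counts, 0, 5, 5 and 3 with upper-quartile factors, 1, 5, 13 and 7 at a mean of at least 1 CPM, 0, 2, 8 and 0 without robust estimation, 3, 5, 19 and 4 with the receptor set as a term, 7, 4, 28 and 1 in the set with more receptor reads, 6, 6, 25 and 10 with DESeq2 and 13, 5, 41 and 4 with limma-voom. Leaving out 1 library gave 0 to 10, 0 to 2, 0 to 38 and 0 to 1, and anything above 0 came only without control 4, under which 10, 2, 38 and 1 were called. Over all genes tested, 1061 were higher and 237 lower without control 4. At most 6 were higher and at most 4 lower without any other library. With 1 control, the set with few receptor reads gave no count. Calls over all genes tested also moved, from 611 higher and 162 lower as reported. RLE scaling gave 13 and 22, no filter 33 and 16, the Xist term 4 and 6, summed pairs 0 and 0 and the trend removed 12 and 5. Total counts gave 59 and 318, upper-quartile factors 225 and 251, 1 CPM 693 and 475, no robust estimation 430 and 130. The receptor term gave 1221 and 408, the set with more 1209 and 747, DESeq2 1714 and 981, limma-voom 1629 and 496. The cause was not tested.

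Replicate numbers did not pair the libraries: deviations of same-numbered libraries correlated at 0.153, 0.125, -0.129 and 0.28 over 16789 genes. With a replicate block the counts were 0, 0, 0 and 0 and the members' median was 0.25. Over all genes tested, 0 were called higher and 0 lower with the block.

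The members' median of 0.25 was 0.20 with RLE factors or DESeq2, -0.01 with total counts, 0.15 with upper-quartile factors, 0.16 at a mean of at least 1 CPM, 0.32 with the Xist term and 0.017 in the set with few receptor reads. It ran from 0.185 to 0.301 with 1 library left out, the lowest without control 3 and the highest without control 4.

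Signs were followed for the genes named by rule or after their values were seen, so the lists below leave out other members. Over all 55 members tested, 37 were positive with TMM and 25 with total counts. Members outside the lists that turned negative with total counts were Nol11, Nop2, Nop14, Utp15, Wdr75 and Rrp8. Among the genes followed, log2 fold changes that turned sign were those of Cd3eap (-0.071), Fbl (-0.01), Heatr1 (-0.19), Ncl (-0.18), Nop58 (-0.15), Polr1d (-0.18), Twistnb (-0.01) and Wdr43 (-0.01) with total counts. With upper-quartile factors they were Heatr1 (-0.016), Ncl (-0.014) and Polr1d (-0.028), and at a mean of at least 1 CPM Heatr1 (-0.007), Ncl (-0.002) and Polr1d (-0.016). In the set with more receptor reads they were Heatr1 (-0.023), Myc (-0.21), Rrn3 (0.081) and Ubtf (0.012). In the set with few they were Ncl (-0.18), Nol3 (0.29), Nol6 (0.094), Nop10 (-0.013), Nop58 (-0.14), Rrp9 (-0.17), Twistnb (-0.001), Utp11 (-0.017), Utp14b (0.42), Wdr43 (-0.68) and Znrd1 (-0.19). With the trend removed they were Fbl (-0.014), Nop58 (-0.068), Polr1d (-0.19) and Utp14b (0.12). Polr1d was at -0.009 with the Xist term. With 1 library left out, Polr1d ran from -0.006 (without control 3) to 0.182, Polr1e to 0.025 (without control 4), and the log2 fold change of Utp14b from -0.482 to 0.188, turning sign without CKO 1, CKO 2 or control 1. Over all named genes and settings, 986 values kept sign and side of the threshold, 183 lost a call, 56 gained one and 39 turned sign.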
